A study of Drosophila melanogaster with 3 samples.

Results

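The Mediator genes were chosen by name as the protein-coding genes of the Ensembl annotation whose symbol is MED followed by a number, together with skd (Med13), kto (Med12), CycC and Cdk8. This gave 29 genes of 13945 protein-coding genes on the chromosome arms used, with 10 in the head, 9 in the middle, 5 in the tail, 4 in the kinase module and MED14 alone as the backbone. The gene ix, which encodes Med29, does not carry a MED symbol and was left out.

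Mediator is a large protein complex that carries signals from DNA-bound transcription factors to RNA polymerase II at promoters. Its head and middle modules contact the polymerase, its tail is the main landing place for activators, MED14 runs through the complex as a backbone, and a kinase module of Cdk8, Cyclin C, Med12 and Med13 joins and leaves the core. Most subunits are needed for the transcription of many genes, and their own genes are broadly active.

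The study mapped the chromatin sites of CG3995 by ChIP-seq in whole Drosophila melanogaster embryos of 0 to 24 hours, male and female together. The flies carried a stable transgene that expresses CG3995 with a green fluorescent protein at its C terminus, and the protein was recovered from chromatin sheared to 200 to 800 bp with an antibody against that tag. The 3 biological replicates formed 1 group, with no second condition among them, and neither untagged flies nor a control immunoprecipitation was analysed here, so bound sites cannot be told apart from general recovery of active promoters, nor 1 cell type or stage from another. The values were peak lists on dm6 in which each region had a signal, the authors' own enrichment value without a unit, and the read depth behind it was unknown.

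The replicate lists held 30000, 28051 and 24171 regions with background regions among them, a list called on all replicates together held 27868, and the thresholded list kept 4260 peaks. A gene is called bound below when a summit of the thresholded list lay within 500 bp of 1 of its annotated transcript starts. This describes where a peak stood and says nothing of whether the gene responds to CG3995. Signal scales differed between lists, so lists were compared only by rank, with rank 1 the strongest region.

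Of the 29 Mediator genes 16 were bound (55.2%), where 28.2% of all protein-coding genes were. In the 4260 strongest regions of replicates 1, 2 and 3 the count was 15, 16 and 14 genes, which is 15 ± 1 (SD, n = 3), or 51.7% ± 3.45 of the Mediator genes against 27.4% ± 0.979 of all protein-coding genes. The Mediator share stood above the share of all genes in each replicate. Bound were MED6, MED11, MED17, MED27, MED28 and MED30 of the head, MED1, MED4, MED7, MED10, MED21 and MED26 of the middle, MED15, MED16 and MED25 of the tail, and skd of the kinase module. Most of these peaks were of ordinary strength: the median rank of the 16 in the pooled list was 1708.5, against 1825 for all bound protein-coding genes. In replicate 2 the order was the other way, with 1994.5 against 1836.5. The DNA under selected peaks comes first, since some of the strongest and of the weakest bound promoters carry known promoter words and others carry neither.

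Each window below has 101 bases centred on the summit, read 5′ to 3′ along the strand of the Mediator gene, from the RefSeq copy of the dm6 assembly. Capitals mark the DNA replication-related element, or DRE, with the letters TATCGATA, which reads the same on both strands and is bound by the factor Dref, or Motif 1, with the letters GGTCACAC on either strand, which is bound by the factor M1BP. Both are common at promoters of broadly active genes. The first set is the 3 strongest bound promoters, MED7 (chr3R:10761128-10761228, minus strand), MED11 (chr3L:18745756-18745856, plus strand) and MED30 (chr3L:654137-654237, minus strand).
MED7: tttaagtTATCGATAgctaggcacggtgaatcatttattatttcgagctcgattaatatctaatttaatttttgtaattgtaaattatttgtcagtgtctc
MED11: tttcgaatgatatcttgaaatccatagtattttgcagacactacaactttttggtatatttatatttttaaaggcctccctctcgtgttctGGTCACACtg
MED30: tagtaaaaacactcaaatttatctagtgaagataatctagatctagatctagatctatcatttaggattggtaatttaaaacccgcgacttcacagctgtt
The second set is the weaker bound promoters that carry either word within 50 bp of the summit, MED26 (chr4:787629-787729, minus strand), MED15 (chr2L:473007-473107, plus strand), MED17 (chr3R:18188973-18189073, plus strand) and MED28 (chr3R:25476910-25477010, plus strand).
MED26: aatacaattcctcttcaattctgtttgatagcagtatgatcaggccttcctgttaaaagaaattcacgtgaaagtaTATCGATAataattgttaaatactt
MED15: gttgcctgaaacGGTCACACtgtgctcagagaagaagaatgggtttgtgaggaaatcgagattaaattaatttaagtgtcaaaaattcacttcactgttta
MED17: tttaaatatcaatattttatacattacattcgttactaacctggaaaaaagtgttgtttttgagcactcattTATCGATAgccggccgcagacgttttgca
MED28: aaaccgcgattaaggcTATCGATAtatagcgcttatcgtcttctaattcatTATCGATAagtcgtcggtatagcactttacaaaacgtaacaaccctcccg
The last is the unbound promoter with the best rank off the thresholded list, MED31 (chr3R:4641780-4641880, plus strand), which has neither word in this window.
MED31: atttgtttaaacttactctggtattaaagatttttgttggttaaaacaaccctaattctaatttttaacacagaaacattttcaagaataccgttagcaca

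The middle module, which holds the hinge of the complex, had 6 of 9 genes bound (66.7%), and the strongest regions of replicates 1, 2 and 3 gave 6, 7 and 5. MED7, a subunit of the hinge (known from yeast), had the strongest Mediator peak, with a signal of 18740 in the thresholded list, 82.5 times the list's median. It ranked 16 in the pooled list and 16, 19 and 17 in replicates 1, 2 and 3, where its signals were 8156, 5341 and 5376. The peak was 948 bp wide (chr3R:10760738-10761685), with its summit 146 bp upstream of the MED7 start (FBgn0051390). The summit lay 132 bp upstream of the start of Cap-H2 on the other strand, which encodes a condensin II subunit and was the nearer of the genes. The summit also fell in an exon of asRNA:CR45016, whose start was not within 500 bp. The peak thus cannot be given to 1 gene alone. The DRE capitalised in the MED7 window was centred at −39.5 bp from the summit, upstream and thus on the Cap-H2 side.

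MED21, the partner of MED7 in the hinge in yeast, was also bound, with a signal of 570.3 (rank 697; ranks 766, 820 and 576 in replicates 1, 2 and 3). Its summit lay 56 bp upstream of its start with no other start within 500 bp, and no full DRE or Motif 1 was within 100 bp. MED10, which in yeast joins the middle to MED14, had a signal of 335.3 (rank 1300; replicate ranks 1148, 1687 and 1573). Its summit stood at −14 bp from its start and −32 bp from that of PDCD-5, which lies 46 bp away on the other strand. For MED7, MED10 and MED21 the highest replicate rank was at most 1.47 times the lowest.

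MED26, which in mammals recruits elongation factors, was the 1 Mediator gene on chromosome 4 and had a signal of 187.8 (rank 2679; replicate ranks 2929, 4141 and 2059). The summit fell 65 bp upstream of the inner of its 2 starts, in an intron of the gene, so MED26 was unbound when only its outermost start was used. MED1, which in mammals contacts nuclear receptors, had a signal of 155.1 (rank 3391; replicate ranks 3917, 2626 and 4179). MED4, a core subunit of the middle, had a signal of 170.5 (rank 3010; replicate ranks 3678 and 2031), and replicate 3 had no region within 500 bp of its start. Its summit lay 250 bp upstream, in the 3′ UTR of CG14830 and 137 bp inside asRNA:CR43470, whose start was the nearest. A replicate was left out by keeping only the thresholded peaks that overlapped a top 4260 region in both of the others, since the thresholded list itself was made from all 3. MED4 was not bound without replicate 1 or replicate 2, nor at a distance of 200 bp.

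MED31, MED9 and MED19 were the unbound middle genes. MED31, a small and conserved subunit that pairs with MED7 in yeast, stood at the edge: its best region, at −133 bp from the start, had a signal of 126.2 and rank 4275, while the weakest thresholded peak had 126.7 and rank 4260. Its ranks were 4706, 2918 and 4547 in replicates 1, 2 and 3, so replicate 2 alone placed it among the 4260 strongest. Its window printed above has neither promoter word. MED9 ranked 9016 in the pooled list (replicate ranks 6691, 16329 and 7421), and MED19, which binds Hox proteins in Drosophila, ranked 20383 with no region in replicate 3.

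**Figure D1:**
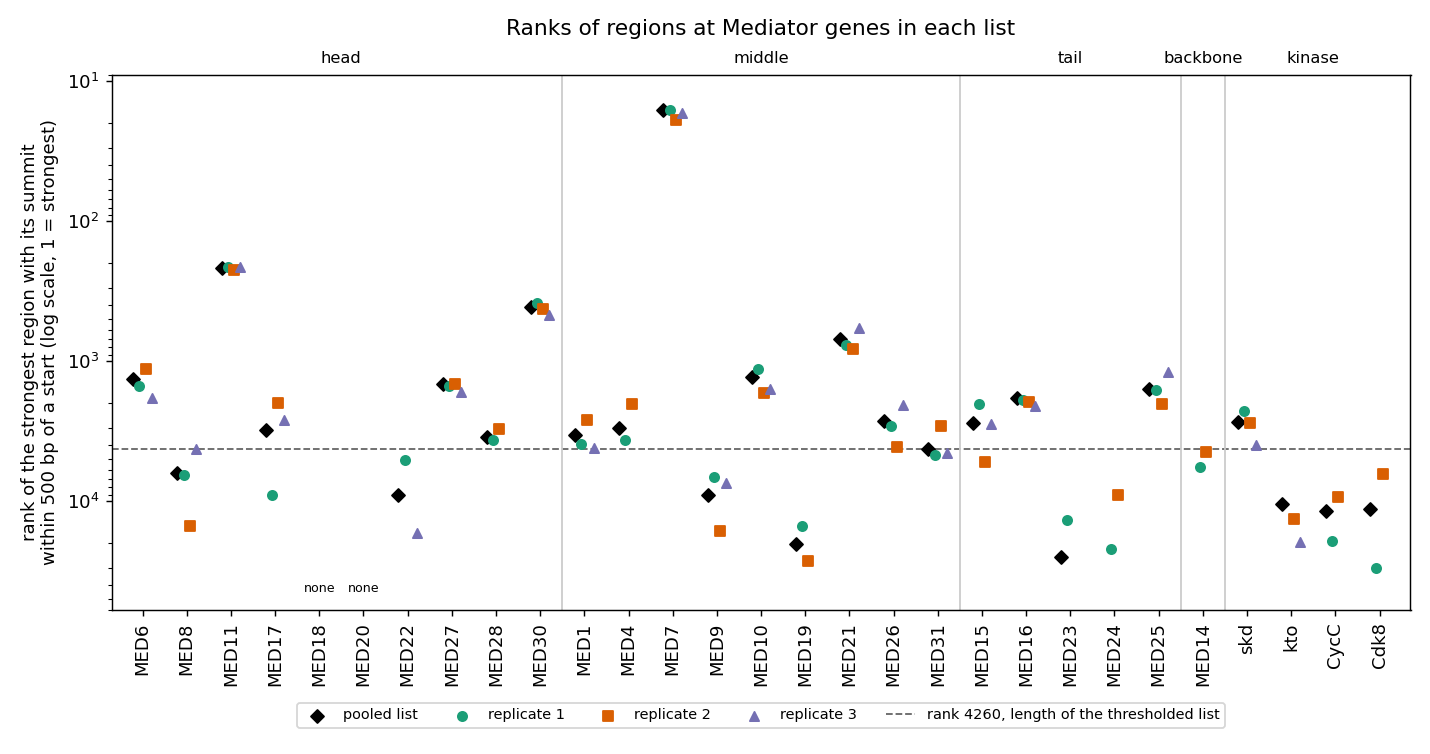
Rank of the strongest region with its summit within 500 bp of a start of each Mediator gene, on a log scale with rank 1 the strongest, for the pooled list and the 3 replicates; the dashed line is rank 4260, a missing symbol means no region in that list, and "none" means no region in any list. MED7, MED11, MED30 and MED21 lie together high up in all lists, while MED18 and MED20 have no region and MED31 sits on the line.

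In the head module, which contacts the polymerase most closely, 6 of 10 genes were bound (60.0%), and the top 4260 regions of each replicate gave 5, 6 and 5. MED11 had the second strongest Mediator peak, with a signal of 3042 (13.4 times the list's median; chr3L:18745385-18746082). It ranked 215 in the pooled list and 212, 224 and 212 in replicates 1, 2 and 3, with signals of 1383, 866.9 and 865.6. The summit lay 50 bp upstream of the MED11 start (FBgn0036811), with no other start within 500 bp, so the peak was not shared with a neighbour. The Motif 1 word of its window was centred at −5.5 bp from the start, on the strand of the gene. MED11 and MED7 were the 2 Mediator genes (6.9%) among the genes of the 250 strongest peaks, which hold 2.5% of all protein-coding genes.

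MED30, a subunit found in animals and not in yeast, had a signal of 1028 (rank 409; ranks 387, 426 and 468 in replicates 1, 2 and 3). Its peak, chr3L:654028-654406, was listed with a second summit of signal 171.6. The stronger summit lay 98 bp upstream of MED30 (FBgn0035149), and the weaker 25 bp inside Rev1, which encodes a translesion DNA polymerase and starts 274 bp away on the other strand. The MED30 window carries neither the full DRE nor Motif 1. MED6, a conserved contact of the polymerase, had a signal of 324.9 (rank 1346; replicate ranks 1507, 1135 and 1835). Its starts number 5, and the summit lay 8 bp downstream of the nearest of them, with the start of Naa80, an N-terminal acetyltransferase gene, 19 bp away on the other strand. The peak was not within 500 bp of the outermost MED6 start, so MED6 was unbound when only that start was used.

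MED27 had a signal of 304.3 (rank 1464, replicate ranks 1513, 1457 and 1668). Its summit lay 200 bp upstream of its own start and 78 bp upstream of elm on the other strand. MED17, a central scaffold of the head, had a signal of 166.2 and rank 3115. Its ranks were 9104, 2011 and 2654 in replicates 1, 2 and 3, so replicate 1 placed it far lower than the others. MED28 had a signal of 152.2 (rank 3463), with ranks 3675 and 3040 in replicates 1 and 2 and no region in replicate 3. The 2 DRE words in the MED28 window, centred at −30.5 and 4.5 bp from its summit, thus go with the weakest bound Mediator peak, and the single DRE of MED7 with the strongest. Both MED17 and MED28 had a neighbour head to head, CG12321 with its start 365 bp from that of MED17 and CG4553 with its start 88 bp from that of MED28. MED17 was not bound without replicate 2 or replicate 3, and MED28 not without replicate 1 or replicate 2.

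The unbound head genes were MED8, MED18, MED20 and MED22. MED18 and MED20, which form a pair at the mobile part of the head in yeast, were the 2 Mediator genes (6.9%) with no region within 500 bp of a start in any replicate list, and 32.1% of all protein-coding genes had none. Their nearest thresholded summits lay 3975 bp from MED18, at deltaCOP, and 1340 bp from MED20, at poe. MED8, which tethers that pair in yeast, had a weak region at rank 6307 (replicate ranks 6522, 15020 and 4286), so its lowest and highest replicate ranks differed by a factor of 3.5. MED22, the partner of MED11 in yeast, ranked 9059, with ranks 5087 and 17077 in replicates 1 and 3 and no region in replicate 2. Of the pairs known from yeast, MED11 with MED22 and MED7 with MED31 each had 1 bound and 1 unbound gene, MED7 and MED21 were both bound, and MED18 and MED20 were both unbound.

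The tail, which activators contact, had 3 of 5 genes bound (60.0%), with 3, 2 and 3 in the top 4260 regions of each replicate. MED25, a target of viral and cellular activators in human cells, had 2 summits of similar signal, 286.0 at −315 bp and 278.2 at −113 bp from its start (rank 1586; replicate ranks 1608, 2041 and 1194). The outer summit was nearer to Hs6st, a heparan sulfate sulfotransferase gene that starts 435 bp away on the other strand. MED16 had a signal of 256.2 (rank 1831; replicate ranks 1909, 1978 and 2100) and its summit 116 bp upstream, between its start and that of CG11170. MED15, a subunit bound by many activators, had a signal of 182.7 (rank 2761) with ranks 2036, 5230 and 2812 in replicates 1, 2 and 3, so it fell outside the 4260 strongest regions of replicate 2. It was not bound without replicate 1 or replicate 3. Its summit lay 44 bp inside the gene, in the 5′ UTR, and the Motif 1 word of its window was centred 9.5 bp downstream of the start.

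MED23 and MED24 were the unbound tail genes. MED23 had a region at rank 25151 of the pooled list and at rank 13717 of replicate 1, and none in replicates 2 and 3. MED24 had none in the pooled list, and ranked 21913 and 9053 in replicates 1 and 2. The lists hold background regions as well as peaks, and none of these ranks is among the 4260 strongest.

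MED14, the backbone, was unbound although replicates 1 and 2 had regions at −71 and −63 bp from its start, with ranks 5694 and 4451. Neither replicate 3 nor the pooled list had a region within 500 bp. Among 4230 protein-coding genes with a summit in the 6000 strongest regions of both replicates 1 and 2, 17 had no pooled region (0.402%). Of the 17 Mediator genes among them, MED14 was the 1 such gene. The cut of 6000 takes in both MED14 ranks, and replicates 1 and 2 are those in which MED14 had a region. The class thus fits MED14 itself, so the 0.402% does not measure how unusual that gene is.

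In the kinase module, whose Cdk8 and Cyclin C phosphorylate transcription factors and the polymerase, 1 of 4 genes was bound, and the same held in the strongest regions of each replicate. That gene was skd, which encodes the subunit that links the module to the core, with a signal of 184.1 (rank 2736; replicate ranks 2286, 2781 and 3987). Its summit lay 458 bp upstream of the nearest skd start and 23 bp upstream of Pdss2, a gene of coenzyme Q synthesis that starts 481 bp away on the other strand. At a distance of 200 bp, or with each summit given to the nearest protein-coding start, no kinase module gene was bound. The genes kto, Cdk8 and CycC had weak regions at ranks 10525, 11469 and 11842 of the pooled list, at −85, −70 and −23 bp from their starts, and each of them lacked a region in 1 replicate. The kinase module count rests on 4 genes, and no test of a difference between modules was made.

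**Figure D2:**
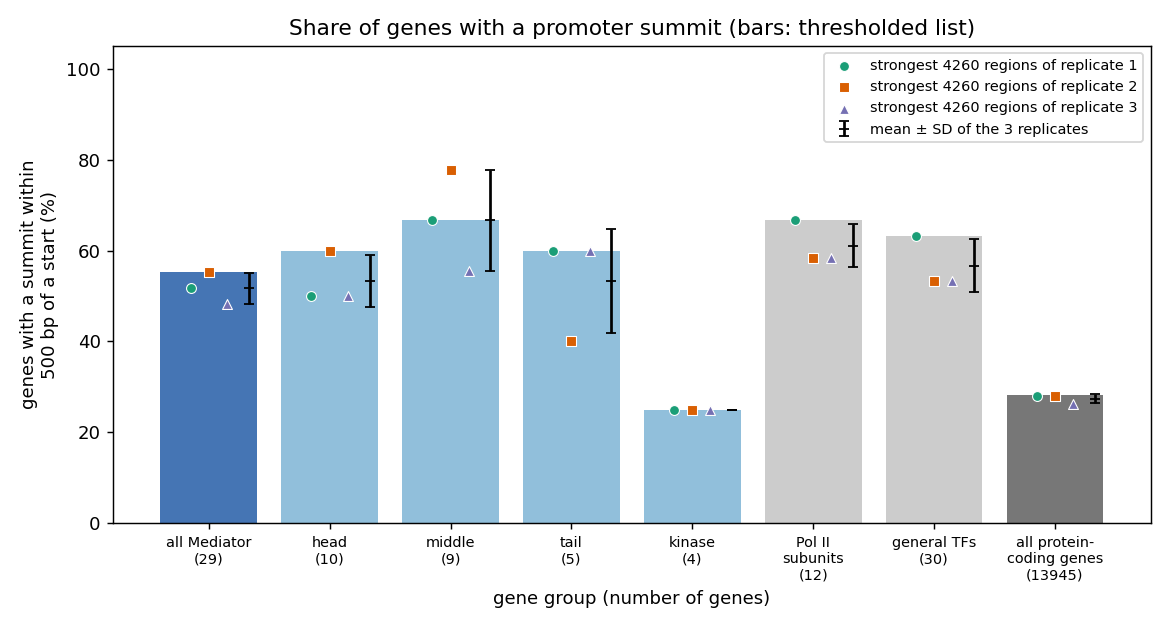
Share of genes in percent that were bound (bars), with the share in the 4260 strongest regions of each replicate (symbols) and their mean ± SD (black), for all Mediator genes, 4 of the modules, RNA polymerase II subunits, general transcription factors and all protein-coding genes. The head, middle and tail bars lie at 60.0, 66.7 and 60.0%, the kinase module at 1 of 4 genes and all protein-coding genes at 28.2%.

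The other parts of the RNA polymerase II machinery also had shares above that of all protein-coding genes. Of 12 genes for polymerase II subunits 8 were bound (66.7%; 61.1% ± 4.81 in the top 4260 regions of each replicate, SD, n = 3), and of 30 genes for general transcription factors 19 (63.3%; 56.7% ± 5.77). The order of these lists and Mediator, at 51.7% ± 3.45, depended on the setting. In replicate 2 Mediator stood at 55.2% and the general factors at 53.3%, and by nearest protein-coding start at 44.8 and 33.3%. The polymerase II subunits stood above Mediator in both settings, at 58.3% in each. By the 2130 strongest peaks Mediator stood at 31.0%, the polymerase II subunits at 25% and the general factors at 40.0%. No test of these differences was made. The gene ix, left out by the symbol rule, was unbound.

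Genes of the polymerase II machinery often had a start of another protein-coding gene within 500 bp of a start of their own. This held for 58.3% of the polymerase II subunit genes and 63.3% of the general transcription factor genes. Of the 29 Mediator genes 19 (65.5%) had such a neighbour, against 30.9% of all protein-coding genes. Of these 19, 10 were bound (52.6%), a share near the 53.9% of all protein-coding genes with such a neighbour. Of the 10 Mediator genes with no such neighbour, 6 were bound (60.0%), namely MED1, MED4, MED11, MED15, MED21 and MED26, against 16.7% of all protein-coding genes with none. Among genes with a single annotated start, 12 of 24 Mediator genes were bound, against 23.7% of all protein-coding genes with a single start. The Mediator share thus lay above that of all genes where no coding neighbour was near and close to it where one was. No test of that difference was made.

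**Figure D3:**
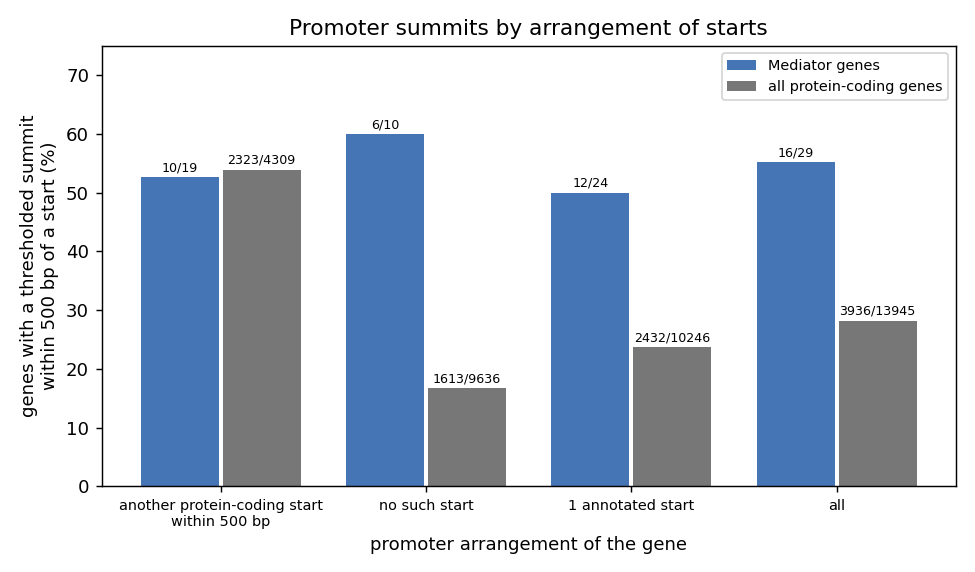
Share of genes in percent that were bound, for Mediator genes (left bar of each pair) and all protein-coding genes (right bar), by arrangement of starts; numbers above the bars are genes bound of genes in the class. With a close protein-coding neighbour the bars stand at 52.6 and 53.9%, and without one at 60.0 and 16.7%.

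Of the 16 bound Mediator genes 10 shared their strongest summit with a protein-coding gene, in each case on the opposite strand with the starts head to head and 19 to 481 bp apart. MED4 shared its summit with a noncoding gene, and 5 genes had the summit to themselves. These 6 genes without a coding neighbour at the summit made up 37.5% of the 16, near the 40.0% of all bound protein-coding genes. The member's own start was the nearest protein-coding start for 12 of 16 (75%), against 70.6% of all bound protein-coding genes. With any summit counted, 13 of the 29 genes had the nearest protein-coding start to a thresholded summit (44.8%), against 20.8% of all protein-coding genes. Summits stood upstream of the start in 14 of 16 genes (87.5%, against 86.7% of all bound genes), with a median position of −72 bp against −85 bp. At a distance of 200 bp 14 of the 29 genes were bound (48.3%), against 22.6%, and in those counts MED4 and skd were the genes lost. The median distance from the start was 72 bp, against 97 bp at all bound genes, and 62.5% lay within 100 bp, against 51.4%. The side of the start on which summits stood thus differed little from other bound genes, while the median distance was shorter. No test of this was made.

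**Figure D4:**
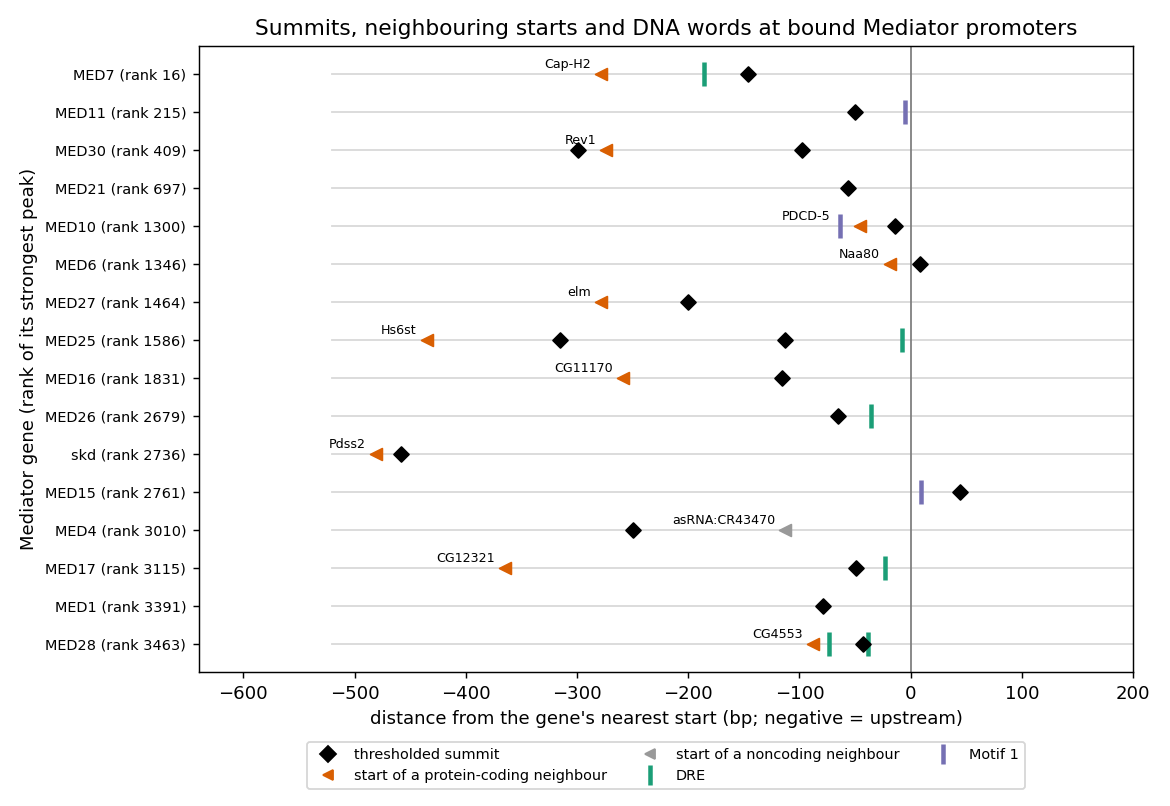
Thresholded summits (black diamonds), starts of neighbouring genes (triangles; orange protein-coding, grey noncoding) and DRE (green) or Motif 1 (violet) words within 150 bp of a summit, as distance in bp from the nearest start of each bound Mediator gene, ordered by rank. The strongest peak, at MED7, lies between the starts of MED7 and Cap-H2, while MED11 and MED21 have summits close to the start and no neighbour.

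A full DRE lay wholly within 50 bp of the strongest summit in 4 of 16 bound Mediator genes (25%), MED7, MED17, MED26 and MED28, against 9.15% of the 3114 thresholded summits near protein-coding starts. Motif 1 did so in MED11 and MED15 (12.5%, against 4.56%). No bound Mediator gene had both words, which do not overlap in letters, within 50 bp of its summit, and 10 of the 16 had neither, MED30, MED21 and MED10 among them. The Motif 1 word of MED10, centred at −49.5 bp, ran past the edge of that window. The 6-base TATA box word TATAAA was counted on either strand and at any position. It was within 50 bp of 6 of 16 summits (37.5%, against 15.5%) and within 100 bp of 7 (43.8%, against 30.3%). On the gene's own strand, the word within 50 bp was seen only at MED25 and MED27, centred at −329.5 and −190.5 bp from their starts. The count is thus of words, not of TATA boxes in place. In the promoter windows of all 29 genes, from 250 bp before to 50 bp after a start, the word was in 55.2%, near the 51.3% of all protein-coding genes. The Initiator word TCAGT was also counted on either strand and at any position, so its count is of words, not of Initiators in place. It was within 50 bp of 2 of 16 summits (12.5%, against 16.8%) and in the promoter windows of 9 of 29 genes (31.0%, against 58.6%). The core of the DRE, CGATA, which lies inside the full word, was within 50 bp of 7 of 16 summits (43.8%, against 36.2%) and within 100 bp of 7 (43.8%, against 52.1%), so its share was close to that of all summits at the shorter distance and below it at the longer. The summit windows of Mediator genes had a median GC content of 33.2%, against 38.6% at all promoter summits, and how far base composition goes with these shares was not tested.

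Unbound Mediator promoters carried the same words. From 250 bp before to 50 bp after a start, the DRE was found in 8 of 29 Mediator genes (27.6%, against 10.2% of all protein-coding genes) and Motif 1 in 9 (31.0%, against 8.71%). The full DRE was in 5 of 16 bound genes (31.2%, against 21.1% of all bound genes). It was in 3 of 13 unbound genes (23.1%, against 5.86% of all unbound genes), namely MED8, MED9 and MED18. Motif 1 was in 3 of 16 bound genes (18.8%, against 15.8%) and in 6 of 13 unbound genes (46.2%, against 5.91%), namely MED8, MED19, MED20, MED22, MED23 and MED24. At least 1 of the 2 words was present in 16 of 29 Mediator genes (55.2%, against 17.7% of all protein-coding genes). These were 8 of 16 bound and 8 of 13 unbound genes, so among Mediator genes the words did not separate bound from unbound promoters. MED8, unbound, was the 1 Mediator gene with both (3.45%, against 1.17% of all protein-coding genes).

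The bound genes differed in how far their ranks varied among replicates. MED11, MED16, MED27, MED7 and MED30 had a highest replicate rank at most 1.21 times the lowest, while for MED26, MED15 and MED17 it was 2.01, 2.57 and 4.53 times. The MED15 ranks came from summits 2, 57 and 215 bp downstream of the start in replicates 1, 2 and 3, so they need not belong to 1 region. Over the 14 bound genes with a region in every replicate, Spearman's rho of the ranks was 0.873 for replicates 1 and 2, 0.908 for 1 and 3, and 0.837 for 2 and 3, as a description of points that share genome and annotation. Among the 29 genes 12 (41.4%) had a summit within 500 bp in the 4260 strongest regions of every replicate, against 21.9% of all protein-coding genes. The bound genes outside this count were MED4, MED15, MED17 and MED28.

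The 13 unbound genes had no thresholded summit nearby: the nearest lay 1340 to 7214 bp from a start, so 1000 bp in place of 500 bp added none. Of all 29 genes 25 had some region of the pooled list within 500 bp (86.2%), against 57.3% of all protein-coding genes. The 9 unbound genes among them ranked from 4275 to 25151, and all but MED31 stood beyond rank 6000.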

How the data were processed

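Peak lists on dm6 were used: 3 replicate lists, 1 pooled list and 1 thresholded list kept by the irreproducible discovery rate procedure, per the file notes deposited with each sample. The signal of each region was computed by the authors against a control file; the aligner, peak caller, versions and threshold are not given in the sources used here. All 4260 thresholded regions were checked to be the strongest of the pooled list, so that list is pooled over replicates.

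Genes and starts came from Ensembl release 115, and bases from the RefSeq copy of the assembly, whose X length, 23542271 bp, is that of dm6. Summits were placed at the peak start plus the listed offset, converted to 1-based positions. Counts were made in Python 3.11.15 with numpy 2.4.6 and pandas 2.3.3, and the assignment of summits to genes was tested on simulated data. The lists on dm3 were not used.

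The genes and gene lists were chosen with earlier results of these data known, so lists are described by counts beside those of all genes, with no p-values. Every Mediator gene is named, as are all genes with a start within 500 bp of their summits. Module membership follows textbook assignments, mostly from yeast and mammals. The 3 replicates were 1 group, and a replicate's 4260 strongest regions stood in for its own thresholded list. Alternatives were other distances, lists, start sets, overlaps, assignments, left-out replicates and module assignments.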

Additional observations from a re-analysis of the deposited data

How the results depend on the processing

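Of the 29 Mediator genes 9 were bound by the 2130 strongest thresholded peaks, against 16.3% of all protein-coding genes, and 25 with every region of the pooled list, against 57.3%. The share of all genes was 22.6% at 200 bp, 31.1% at 1000 bp, 26.3% in the strongest regions of replicate 3, 21.2% for peaks overlapped over at least 0.5 of their length in all replicates, 26.5% with the outermost start only and 20.8% by nearest protein-coding start. With peaks required to overlap a top region in both replicates other than the one left out, 13 to 14 Mediator genes and 22.8 to 24.4% of all genes were bound. The Mediator share exceeded that of all genes in each of these settings. With MED27, MED28 and MED30 in the tail and MED14 in the middle, the head had 3 bound genes of 7 and the tail 6 of 8, so the split between those modules depends on the assignment. The middle had 3 bound genes by the 2130 strongest peaks. The kinase module had 0 at 200 bp, by the 2130 strongest peaks and by nearest start, and 4 with every pooled region. The median rank of bound Mediator genes was 1994.5 in replicate 2, against 1836.5 for all bound genes, and 7 bound genes (43.8%, against 36.2% of promoter summits) had the DRE core CGATA within 50 bp of the summit. MED10, MED11, MED16, MED21, MED25 and MED30 were bound in all 14 alternatives of peak list, distance, start and assignment. No paired analysis was possible because there was a single group. Read depth was unknown, so no limit from depth can be given, and the count of genes near the threshold, MED31 above all, depends on where the authors set it.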
